A study of Aspergillus niger with 8 samples.

Results

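The genes described here encode 5 enzymes of *Aspergillus niger* that take side groups off xylan, or are annotated as doing so. They were picked by their CBS gene identifiers out of 15431 gene models. They are axhA (An03g00960), which encodes an arabinoxylan arabinofuranohydrolase, aguA (An14g05800), which encodes an α-glucuronidase, axeA (An12g05010), which encodes an acetyl xylan esterase, and a pair of feruloyl esterase genes, An12g02550 and faeA (An09g00120). All 5 had reads and all 5 entered the tests. RNA was sequenced from mycelium of strain N402, in 4 conditions with 2 cultures each, labelled A and B. The first condition was 48 h of growth on 1% glucose, and in the other conditions such mycelium was washed and moved for 6 h to medium with 1% ball-milled wheat straw, or for 6 h or 24 h to medium with no carbon source. All libraries came from this 1 strain, and all transferred cultures had grown on glucose first. What follows asks how transcript levels of these genes differed between growth on glucose, early contact with straw and carbon starvation.

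Arabinoxylan, the main hemicellulose of wheat straw, is a chain of β-1,4-linked xylose residues that carries arabinose, (4-O-methyl)glucuronic acid and acetyl groups. Some of its arabinose residues are esterified with ferulic acid, through which chains are linked to each other and to lignin. Endoxylanases cut the chain, and the enzymes described here remove side groups from it or from the pieces left after cutting. In *A. niger* the genes of xylan breakdown are known as targets of the transcription activator XlnR, which responds to xylose, and as repressed on glucose through CreA.

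Of all reads, 1.41 to 3.40% were assigned to genes, which gave 205778 to 979256 reads on genes per library. Straw A had 1.97% and straw B 3.40% of its reads on genes. The deposited level is RPKM, reads scaled to gene model length and library size, and it divides by all reads of a library, including those assigned to no gene. For that reason the tests used counts scaled to the reads on genes. With edgeR's quasi-likelihood test a gene was called at a Benjamini-Hochberg adjusted p below 0.05 together with a ratio of mean RPKM of at least 3. In bulk RNA of this kind, a lower level per hypha and fewer hyphae that express a gene cannot be told apart. The 3 reference genes measured beside these, actA (actin), sarA and An08g05910, were called in 0 of the 6 comparisons by edgeR's test.

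All 5 genes were higher on 6 h straw than on 48 h glucose, where 10.8% of the 6357 tested genes were called higher and 11.2% lower. Most of these 5 genes stand in the study's own tables of genes raised in these libraries, so this count is not independent evidence of its direction. An12g02550 and faeA also passed the low-count filter only through the straw libraries. The other 3 genes (axhA, aguA, axeA) would have passed it without them. The median fitted log2 fold change was 8.13 for the 5 genes (7.88 from pooled reads per all reads with faeA, unread on glucose, at its lower bound) against 0.01 for all tested genes, and 85 of the 6357 tested genes lay above the lowest of the 5.

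**Figure D1:**
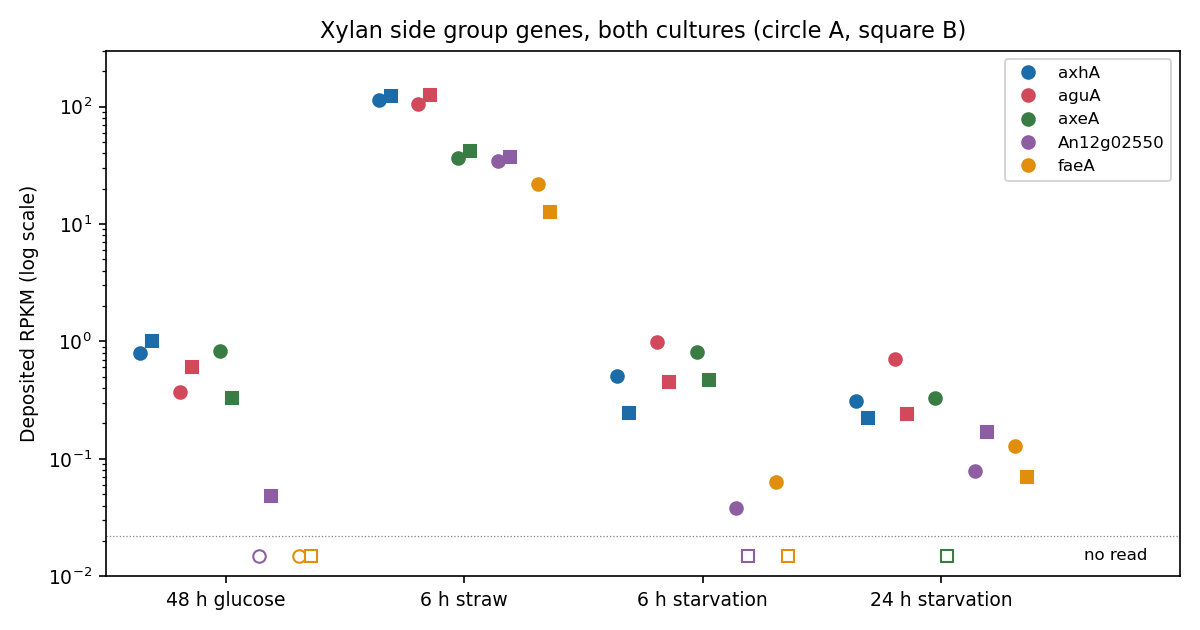
Deposited RPKM (log axis) of the 5 xylan side group genes in each of the 8 libraries, with a circle for culture A and a square for culture B. Hollow symbols below the dotted line are libraries without a read. Both straw cultures stand above the 6 other libraries for each gene, from 12.7 RPKM for faeA in straw B to 127 RPKM for aguA in straw B.

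The GH62 enzyme of axhA takes single arabinose residues off the xylan chain. Its RPKM was 0.803 and 0.999 on glucose in cultures A and B, 115 and 123 on straw, 0.510 and 0.245 after 6 h of starvation, and 0.313 and 0.223 after 24 h. Both straw cultures lay 115-fold or more above the highest other library, glucose B. The mean rose from 0.901 ± 0.139 to 119 ± 5.82 RPKM (SD, n = 2), and the log2 fold change was 7.31 ± 0.57 (SE; edgeR adjusted p = 3.7e-08). With 3217 and 4347 reads, axhA was the gene with rank 10 by RPKM in straw A and rank 19 in straw B.

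The product of aguA frees (4-O-methyl)glucuronic acid from the ends of xylo-oligosaccharides, after endoxylanases have cut the chain. Its RPKM was 0.370 and 0.608 on glucose, 106 and 127 on straw, 0.998 and 0.453 after 6 h of starvation, and 0.706 and 0.243 after 24 h. Again straw did not overlap with any other condition, and the nearest library was 6 h starvation A. The log2 fold change of straw against glucose was 8.13 ± 0.68 (edgeR adjusted p = 5.3e-08). On straw neither aguA nor axhA led in both cultures, with a ratio of axhA to aguA of 1.09 in A and 0.970 in B.

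Acetyl groups on xylose are removed by the esterase that axeA encodes. Its RPKM was 0.828 and 0.329 on glucose, 36.6 and 42.0 on straw, 0.812 and 0.468 after 6 h of starvation, and 0.332 and 0 after 24 h. The straw cultures were high and the starvation and glucose libraries overlapped at the low end. The log2 fold change against glucose was 6.36 ± 0.62 (edgeR adjusted p = 2.7e-07), and it was 7.06 without glucose A, where 17 of the 25 glucose reads lay.

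Feruloyl esterases split the ester bond between ferulic acid and arabinose. For An12g02550, annotated as such an esterase in the study's table, the 8 libraries held 0 and 1 reads on glucose, 638 and 880 on straw, 1 and 0 after 6 h of starvation and 1 and 2 after 24 h. The straw level was 34.3 and 37.6 RPKM. With a single read on glucose, the ratio of pooled reads per all reads was 1373, with an exact 95% interval of 246 to 54249 that covers counting error only (edgeR adjusted p = 1.6e-08). It was 745 without glucose A, and without glucose B, where the read lay, the straw level was at least 209-fold higher. In RPKM the lower straw culture lay 204-fold above the highest other library, 24 h starvation B with its 2 reads. Per reads on genes the same distance was 92.5-fold.

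For faeA, whose product is a feruloyl esterase known from *A. niger*, the libraries held 0 and 0 reads on glucose, 493 and 360 on straw, 2 and 0 after 6 h of starvation and 2 and 1 after 24 h. The straw level was 21.9 RPKM in A and 12.7 in B. Against a floor of 3 reads over both glucose libraries, the pooled straw level was at least 257-fold higher (edgeR adjusted p = 9.7e-08). With straw A alone the bound was 336-fold and with straw B alone 195-fold, and with glucose A or glucose B left out it was 139-fold and 118-fold.

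Among these genes the order of straw levels was the same in both cultures below the leading pair. axhA and aguA exchanged places between A and B, axeA and An12g02550 followed, and faeA was lowest. axeA exceeded An12g02550 by 1.07 and 1.12 times, while between the cultures axeA differed by 1.15 times and An12g02550 by 1.09 times in RPKM. axhA and aguA lay 2.90 to 3.14 times above axeA. Together the 5 genes took 0.00913 and 0.0104% of the reads on genes on glucose, 2.504 and 1.64% on straw, 0.0273 and 0.0106% after 6 h of starvation and 0.0131 and 0.00778% after 24 h. Both straw cultures stand far above the rest in this share. After 6 h of starvation culture A lay above both glucose cultures. Culture B, on 38 reads, could not be told apart from glucose B, on 79 reads. Their counting intervals overlapped, at 0.0075 to 0.0146% for 6 h starvation B and 0.0082 to 0.013% for glucose B. Over all reads 6 h starvation B lay below both glucose cultures, at 0.00019% against 0.00027 and 0.00031%. In the share of reads on genes, 24 h starvation overlapped with 48 h glucose and with 6 h starvation.

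**Figure D2:**
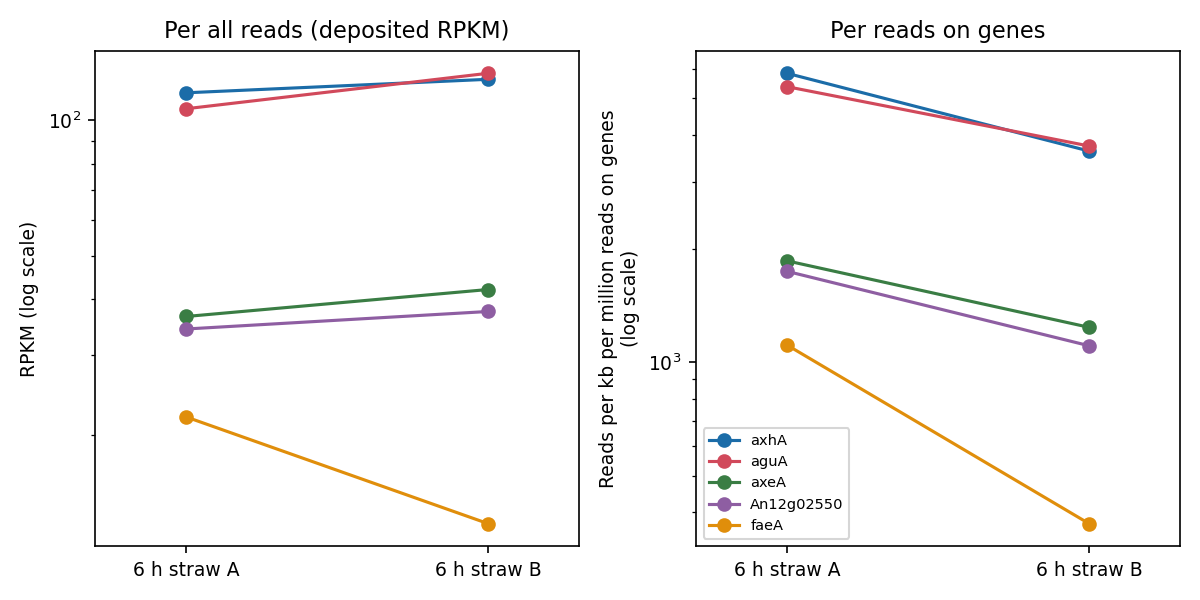
Level of each gene in straw cultures A and B, as deposited RPKM (left) and as the same scaled to reads on genes (right), both on log axes. In RPKM only faeA was lower in B (12.7 against 21.9), whereas per reads on genes all 5 were lower in B, and faeA had the steepest line on both scales.

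The straw cultures differed in ways that depend on the scale. In deposited RPKM axhA, aguA, axeA and An12g02550 were 1.07 to 1.20 times higher in B, while faeA was 1.73 times higher in A. Per reads on genes all 5 were higher in A, by 1.44 to 1.61 times for the first 4 and by 2.98 times for faeA. The ratio of axhA to faeA, which does not depend on the scale, was 5.25 in A and 9.72 in B. faeA made up 6.98% of the summed RPKM of the 5 genes in A and 3.70% in B, and the shares of axhA were 36.6 and 36.0%. With 1 library per culture, whether faeA differed between the cultures was not tested.

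The same genes were set against mycelium starved for 6 h, which shares the loss of glucose and the time with straw but lacks the plant material. All 5 were higher on straw, where 7.3% of tested genes were called higher and 5.13% lower. An12g02550 and faeA were tested only through the straw libraries, so only axhA, aguA and axeA can be set against these shares. The log2 fold change was 7.49 ± 0.59 for axhA, 6.52 ± 0.63 for aguA and 5.14 ± 0.58 for axeA (edgeR adjusted p = 8.5e-08, 7e-07 and 4.4e-06). Culture A of 6 h starvation held most of the reads of that condition. Without it these values were 8.38, 7.45 and 5.84. For An12g02550 the ratio of pooled reads was 1530 (exact 95% interval 274 to 60468, 1 starvation read), and for faeA it was 430 (119 to 3555, 2 starvation reads). Without 6 h starvation A, which held these reads, the bounds were at least 196-fold and 110-fold higher, and without 6 h starvation B the ratios were 941 and 264.

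Against 24 h of starvation all 5 were again higher on straw, with 12.4% of tested genes called higher and 9.53% lower. Here times as well as media differed. Again only axhA, aguA and axeA can be set against these shares, since An12g02550 and faeA were tested only through straw. The log2 fold change was 8.47 ± 0.64 for axhA, 7.66 ± 0.67 for aguA and 7.54 ± 0.72 for axeA (edgeR adjusted p = 6.8e-08, 2.1e-07 and 5e-07). It was 8.28 for aguA without 24 h starvation A, and 6.81 for axeA without 24 h starvation B, which had no axeA read. Without 24 h starvation A no axeA read was left at 24 h. The pooled ratio was 297 for An12g02550 (exact 95% interval 101 to 1441) and 167 for faeA (56.9 to 810), each on 3 starvation reads. Without 24 h starvation B the ratio for An12g02550 was 461. The 3 straw comparisons share the straw libraries and are not independent of each other.

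**Figure D3:**
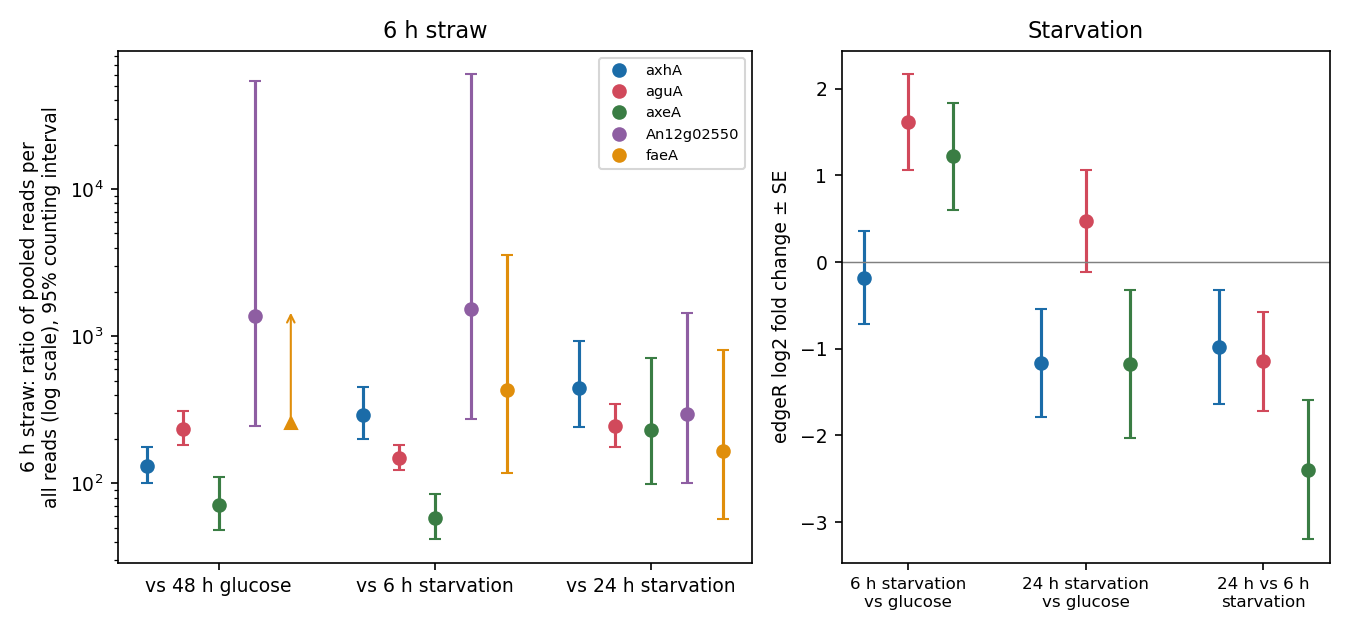
Left, ratio of pooled reads per all reads of 6 h straw to each other condition (log axis) with exact 95% counting intervals, and an arrow from 257 for faeA against glucose, which is a lower bound. Right, edgeR log2 fold change with SE between the starvation and glucose conditions for the 3 genes with enough reads, from 1.61 for aguA at 6 h to −2.40 for axeA between the starvation times.

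No side group gene exceeded 1 RPKM in any starvation library. Against glucose 0 of 5 were called after 6 h by edgeR's adjusted p and the RPKM ratio together. By this rule 9.36% of tested genes were called higher and 15% lower. DESeq2 also called 0, but under the same RPKM ratio, which axhA, aguA, axeA and An12g02550 could not meet. DESeq2's adjusted p for aguA was 0.018. By edgeR 1 gene had an unadjusted p below 0.05. That gene was aguA, with a log2 fold change of 1.61 ± 0.55 (edgeR adjusted p = 0.03). Its mean RPKM ratio was 1.49, under the threshold of 3. With the threshold on edgeR's fold instead, aguA was called higher, and over all tested genes 951 were higher and 736 lower. The 6 h starvation libraries had 1.47 and 1.79% of their reads on genes, and the glucose libraries 2.97 and 2.99%. Per reads on genes the pooled ratio was 2.96. The aguA libraries overlapped between the conditions in RPKM. Scaled to reads on genes they did not, at 12.4 and 20.3 on glucose and 67.8 and 25.3 after 6 h of starvation. Without 6 h starvation A, which held 81 of the 104 reads, the log2 fold change was 0.68 (adjusted p = 0.52). The values were −0.18 ± 0.54 for axhA and 1.22 ± 0.62 for axeA, and without 6 h starvation A they were −1.07 and 0.52. Without glucose A the axeA value was 1.92. An12g02550 and faeA had 1 and 2 starvation reads against 1 and 0 on glucose.

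After 24 h of starvation 0 of 5 were called against glucose by edgeR and by DESeq2, where edgeR called 12.8% of tested genes higher and 17.4% lower. The log2 fold change was −1.17 ± 0.62 for axhA, 0.47 ± 0.59 for aguA and −1.18 ± 0.85 for axeA. The axeA value was −0.43 without glucose A and −0.44 without 24 h starvation B, and no axeA read was left at 24 h without 24 h starvation A. The aguA value was −0.19 without 24 h starvation A. One gene, faeA, had an unadjusted p below 0.05, on 3 reads against 0 (edgeR adjusted p = 0.071). It was called with a fit that left out straw A, straw B, 6 h starvation A or 6 h starvation B (adjusted p from 0.041 to 0.049), and with the letter as a replicate block (0.037). At 3 reads against 0, both groups lie at or under the floor and no fold is given.

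Between 24 h and 6 h of starvation 0 of 5 were called by edgeR and by DESeq2, against 3.96% of tested genes higher and 3.11% lower. The axeA value was −2.40 ± 0.80 on 5 reads against 34 (unadjusted p = 0.007, edgeR adjusted p = 0.072), the 1 gene with an unadjusted p below 0.05, and its cultures did not overlap between the times. It fell by 2.86 on the log2 scale without 6 h starvation B (adjusted p = 0.03) and fell by 2.48 with the replicate block (adjusted p = 0.022). It also passed without 24 h starvation A (adjusted p = 0.047), where the remaining 24 h library had no axeA read. Without 6 h starvation A or 24 h starvation B the value was −1.71 and −1.68 (adjusted p = 0.37 and 0.32). The values for axhA and aguA were −0.98 ± 0.66 and −1.14 ± 0.57, with overlapping cultures. They were −0.11 and −0.22 without 6 h starvation A, and the aguA value was −1.79 without 24 h starvation A. Differences of this size rest on 4 to 81 reads per library for axhA and aguA.

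The chain these side groups sit on is cut by endoxylanases and β-xylosidases. Of 9 backbone genes listed, 7 were tested and 6 were higher on straw than on glucose, against 10.8% of all tested genes. xynA, an endoxylanase gene, stood at 129 and 113 RPKM on straw, and xlnD, the gene of the main β-xylosidase, at 18.4 and 17.8. Their log2 fold changes were 8.25 ± 0.65 and 8.70 ± 0.65 (edgeR adjusted p = 3.7e-08 and 2e-08). Summed RPKM of the 5 side group genes was 1.74 times that of the 9 backbone genes in straw A and 2.03 times in straw B, against 2.88 and 1.04 times in the glucose cultures at levels below 2 RPKM. Under starvation the ratio ran from 0.538 to 1.40, also at low levels. The sums there were at most 2.42 RPKM for the side group genes and 2.11 RPKM for the backbone genes. The highest backbone gene was xynA in 6 h starvation A, An08g01900 in 24 h starvation A and An11g03120 in both B cultures. Whether the ratio differed between conditions was not tested.

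Other accessory genes measured beside them were the arabinofuranosidase genes abfA, abfB and abfC and the feruloyl esterase gene faeB. The study lists pectin as the predicted substrate for abfC, and both pectin and xylan for abfB. All 4 of 4 were higher on straw than on glucose, against 10.8% of all tested genes. faeB had 30.0 and 61.1 RPKM on straw, higher in B in contrast to faeA, and a log2 fold change of 6.82 ± 0.54 (edgeR adjusted p = 4.2e-08). After 6 h of starvation abfB and abfC were also higher than on glucose, by 7.21 ± 0.63 and 4.87 ± 0.51 on the log2 scale (edgeR adjusted p = 1.2e-07 and 7e-07), and abfA and faeB were not called. In RPKM, abfB was 4.05 and 4.09 after 6 h of starvation and 0.0619 and 0.149 after 24 h. Of the 7 tested backbone genes, 2 were called higher after 6 h of starvation, where 9.36% of all tested genes were. Whether these lists differed from the side group genes, of which aguA had an adjusted p of 0.03 by edgeR and missed only the RPKM threshold, was not tested.

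**Figure D4:**
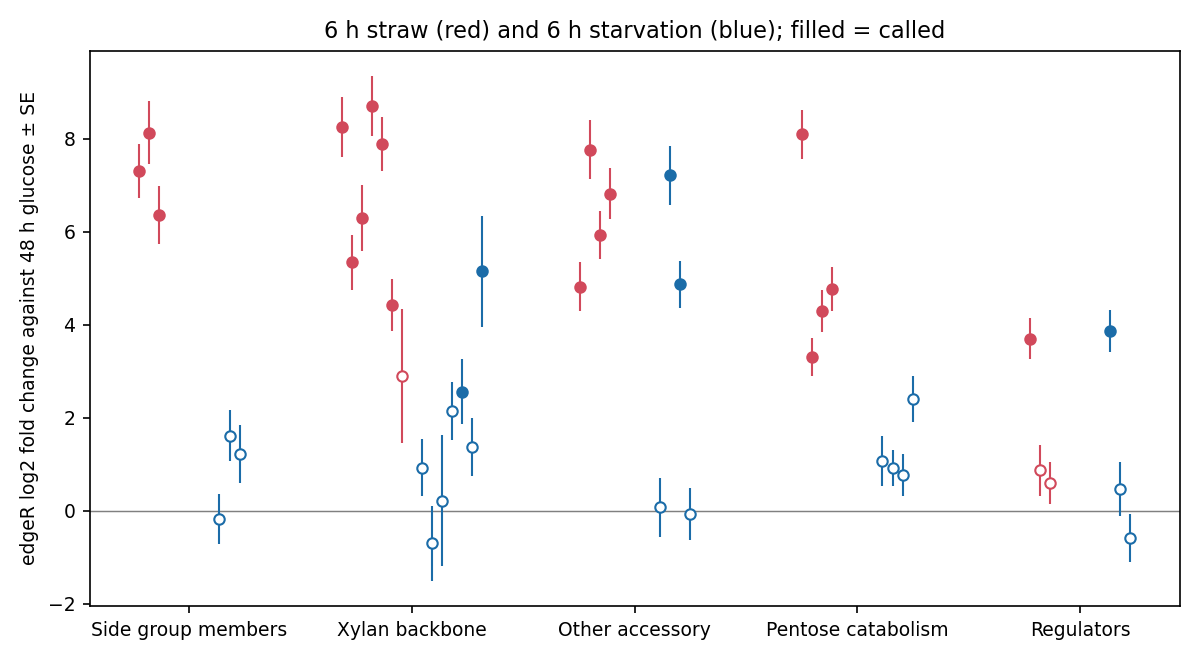
edgeR log2 fold change with SE against 48 h glucose, for 6 h straw (red) and 6 h starvation (blue). Each symbol is a gene, and filled symbols were called. axhA, aguA and axeA stand for the side group genes, since An12g02550 and faeA had 1 and 0 glucose reads. Straw values of the side group genes lie between 6.36 and 8.13 and their starvation values between −0.18 and 1.61, and abfB and abfC are filled in both.

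Xylose and arabinose freed from arabinoxylan enter the pentose catabolic pathway. Its genes measured here were xyrA (D-xylose reductase), xdhA (xylitol dehydrogenase), xkiA (xylulokinase) and ladA (L-arabitol dehydrogenase). On straw 4 of 4 were higher than on glucose, against 10.8% of all tested genes. xyrA had the largest change of these, at 8.09 ± 0.53 (edgeR adjusted p = 1.6e-08), with 41.6 and 83.5 RPKM on straw. After 6 h of starvation 0 of 4 were called, although ladA had an adjusted p of 0.00074 at an RPKM ratio of 2.65. After 24 h ladA was called higher than on glucose, 1 of 4, by 2.86 ± 0.49 on the log2 scale (edgeR adjusted p = 0.00013). Over all tested genes 9.36% were called higher after 6 h and 12.8% after 24 h.

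The regulator gene xlnR differed from the side group genes across conditions. Its RPKM was 0.196 and 0.375 on glucose, 2.38 and 4.33 on straw, 2.02 and 2.32 after 6 h of starvation, and 1.31 and 1.20 after 24 h. It was higher than on glucose in all 3, by 3.70 ± 0.44, 3.87 ± 0.44 and 2.71 ± 0.44 on the log2 scale (edgeR adjusted p = 2.8e-06, 2.2e-06 and 9.1e-05). Straw against 6 h of starvation gave −0.17 ± 0.38 for xlnR (edgeR adjusted p = 0.83). The genes of the arabinose regulator AraR and the repressor CreA were not called against glucose.

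Genes next to the side group genes were examined by the number in the CBS identifier, 2 on each side. Of 20 neighbours 9 were tested, and 3 were called higher on straw than on glucose and 1 lower. Over all tested genes 10.8% were called higher and 11.2% lower. Whether the neighbours differed from these shares was not tested. xynA lies 2 places from axhA, at the same straw level (129 and 113 RPKM against 115 and 123), while the gene between them had no read in straw A and 0.297 RPKM in straw B. Near aguA, the β-galactosidase gene An14g05820 (lacE in the study's table) was higher by 3.005 ± 0.54 at 0.842 ± 0.031 RPKM on straw, and An14g05780 was lower by 3.75 ± 0.88 (edgeR adjusted p = 0.00027 and 0.0023). An12g05020, beside axeA, was higher by 1.93 ± 0.66 (edgeR adjusted p = 0.033). The 4 neighbours of faeA had no read on glucose, on straw or after 6 h of starvation.

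**Figure D5:**
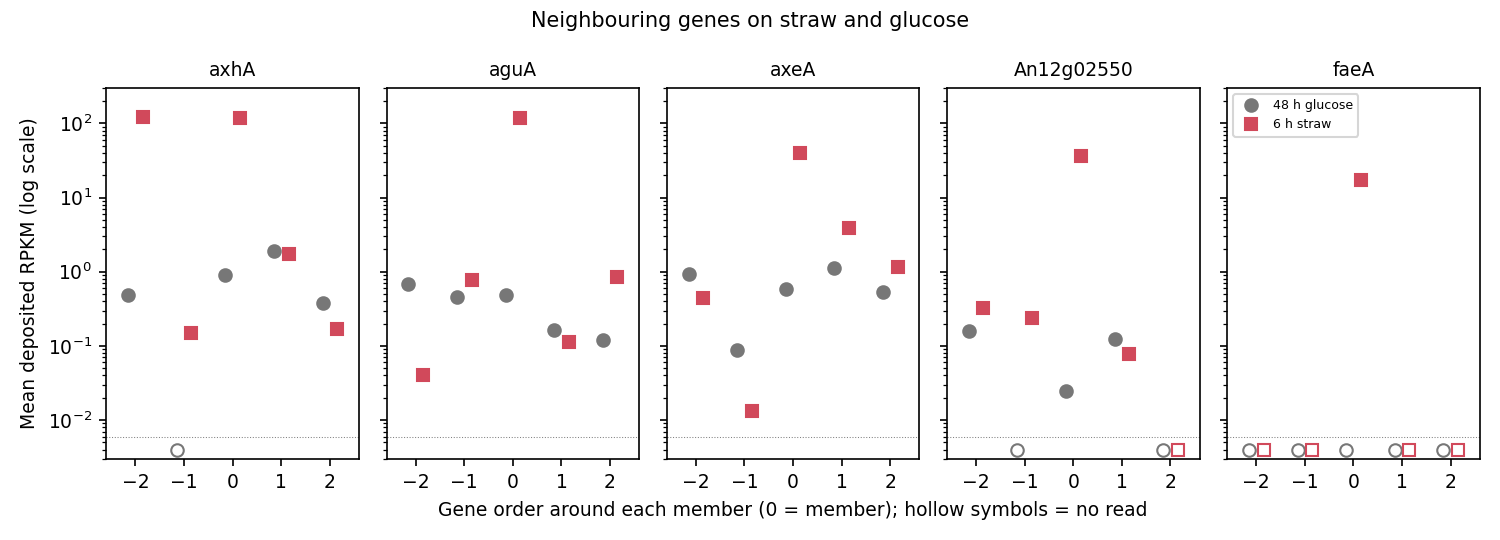
Mean deposited RPKM (log axis) of each side group gene (position 0) and of the 2 genes on each side by CBS number, on 48 h glucose (grey circles) and 6 h straw (red squares). Hollow symbols lie at no read. Only xynA, at position −2 from axhA, reached the straw level of its neighbour, and the genes around faeA had no read.

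Across the 8 libraries the profiles of the 5 genes, as log2 CPM, had Pearson correlations between 0.88 (axeA and An12g02550) and 0.99 (An12g02550 and faeA). These values describe 8 points that share libraries and depth, and 2 of the points are straw. An12g02550 and faeA passed the low-count filter only through straw and had at most 2 reads in any other library. Their high correlation was thereby set in advance and is no evidence of likeness. Both genes also enter the mean profile used next. Among 5481 other genes with a mean of at least 10 reads, the profile closest to the mean of the 5 was that of xynA (r = 0.998). Others among the top 10 were xlnD (0.986) and xyrA (0.982). The remaining 7 were An03g05860, An13g02000, An07g09920, An11g00430, An06g00560, An02g00740 and An11g06300, with r from 0.983 to 0.996 and mean straw levels between 1.33 and 28.3 RPKM. The mean straw level of each of these 7 was below those of axhA, aguA, axeA and An12g02550.

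The distance of the straw cultures from all other libraries gives a further description. In RPKM, 10.9% of the tested genes had both straw cultures above the 6 other libraries. The lower straw culture exceeded the highest other library by 115-fold for axhA, 106-fold for aguA, 44.2-fold for axeA, 204-fold for An12g02550 and 97.9-fold for faeA. The number of tested genes with a wider distance in RPKM was 3, 4, 16, 0 and 6 in that order, not counting the 4 genes unread outside straw. For An12g02550 and faeA the highest other library held 2 reads. Both were among the tested genes only through the straw libraries, so their places in this ranking are no evidence of a wide distance. Per reads on genes the order changed, and the distances were 105, 55.2, 22.4, 92.5 and 58.9-fold.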

How the data were processed

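Total RNA of each culture was depleted of ribosomal RNA and sequenced on the SOLiD 5500xl. The deposited counts are reads per gene model of a strain other than N402. The authors mapped with LifeScope and counted with HTSeq, keeping unique alignments with a mapping quality of at least 20. The deposited RPKM was computed by the authors from these counts, and dividing it back showed that the total includes reads assigned to no gene. The rows for such reads stayed out of library sizes and tests. They held 96.6 to 98.6% of reads.

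The conditions were tested on counts by edgeR 4.0.16 (R 4.3.3, filterByExpr, TMM factors 0.901 to 1.15, all 8 libraries in 1 fit with 4 residual degrees of freedom, common dispersion 0.0889). Of 15431 genes, 6357 were tested, and p-values were adjusted over these after Benjamini and Hochberg. RPKM is used for levels, and RPKM per reads on genes as a second scale. The floor for unread groups was 3 reads over the group, and no fold is given where both groups lay at or under it. Intervals (95%, exact) cover counting error only. The letters A and B are not said to pair cultures, so they were not used as a block, and p-values measure the spread between cultures. Named were all 5 genes, up to 4 genes per list with the largest change on straw plus xlnR, neighbours called higher, and the 10 closest profiles (log2 CPM with a prior count of 2). The neighbour An14g05780 and faeA's neighbours were singled out after their values were seen. Gene names were checked against the RefSeq table of assembly ASM285v2, a build other than that of the counts, so that coordinates and sequences are not given. The genes and lists were chosen with earlier results of these data known. The pipeline was tested on simulated data. Alternatives were DESeq2 1.42.0, RLE factors, library size alone, no low-count filter, a replicate block, other call thresholds, fits on a single pair of conditions, and leaving out each library.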

Additional observations from a re-analysis of the deposited data

How the results depend on the processing

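Over 17 alternative settings, 396 of 405 single-gene values kept their direction and side of the threshold. The 405 leave out An12g02550 and faeA in the comparisons without straw, where both groups lay at or under the floor. Settings that changed only the call rule kept the log2 fold change of the main fit by construction. In the 3 straw comparisons all 5 genes stayed called in every setting that kept both cultures of the conditions compared. Their lowest log2 fold change in any setting was 4.70, for axeA against 6 h starvation. After 6 h of starvation against glucose, 1 gene (aguA) was called with the threshold on edgeR's fold or on the adjusted p alone, and 0 to 0 when libraries were left out. After 24 h against glucose, 1 gene (faeA, 3 reads against 0) was called with no filter on counts and under the replicate block, and 0 to 1 when libraries were left out. Between the starvation times 1 gene (axeA) was lower without the filter and with the replicate block, and 0 to 1 when libraries were left out. With a library left out the remaining one is assumed to vary like the other conditions. Small differences changed sign: axhA after 6 h of starvation was 0.0033 without glucose B and 0.33 without 6 h starvation B, and aguA after 24 h was −0.19 without 24 h starvation A. With libraries left out these ran from −1.07 to 0.33 for axhA and from −0.19 to 0.88 for aguA. The cause was not tested.

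Same-lettered libraries did not deviate together throughout (correlations −0.066 to 0.28), and the replicate block changed no other call than the 2 above. With library size alone the median log2 fold change of all tested genes was 0.19 in 24 h starvation against glucose, where the main fit gave −0.02. It was −0.16 against 0.08 in the main fit for straw against 24 h starvation, and 0.23 against −0.07 between the starvation times. The share of reads on genes taken by the 5 genes is much smaller over all reads, 0.0494 and 0.0556% on straw. Which direction held more of all calls depended on the scale of the threshold. On edgeR's fold, 762 genes were higher and 657 lower on straw than on glucose. Straw gave 387 and 484 against 6 h starvation and 652 and 684 against 24 h starvation. After 24 h against glucose it was 1003 and 859. Between the starvation times, at 240 and 237, higher calls led on both scales. At 0 to 39 reads per library on glucose, changes of these genes under starvation were detectable only where large.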

Other observations

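brlA, which encodes a regulator of conidiation, had 0 reads in both straw cultures, 1 and 3 on glucose, 8 and 1 after 6 h of starvation and 35 and 9 after 24 h. It was higher after 24 h of starvation than on glucose by 4.46 ± 0.90 on the log2 scale (edgeR adjusted p = 0.00062), where none of the 5 side group genes was called. The backbone list genes An08g01900 and An11g03120 were higher than on glucose at both starvation times, with 17 and 25 reads after 6 h against 5 and 1 on glucose. abfA was lower after 24 h of starvation than on glucose, on 1 read against 26 (edgeR adjusted p = 0.023).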
